A study of Mus musculus with 2 samples.

Results

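Mouse embryonic stem (ES) cells express a set of genes that lie outside the core transcription factor circuit and act as its effectors or as marks of the undifferentiated state. Described here are 10 such genes: the developmental pluripotency-associated genes Dppa2, Dppa3, Dppa4 and Dppa5a, the F-box gene Fbxo15, the Akt co-activator Tcl1, the Ras-like gene Eras, the chromatin factor Utf1, the alkaline phosphatase Alpl and the zinc finger gene Zfp57. They were chosen by name, and every gene probe on the array that carries a member's current or older symbol was taken, which gave 11 probes of 41174. Dppa5a had 2 probes and each other member had 1. No further probe was found through the members' transcript accessions.

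RNA of the mouse ES cell line R1 was measured at day 6 of direct neural differentiation, when the cells form embryoid bodies (floating aggregates) and are labelled as neural precursors, and at day 0, as undifferentiated ES cells. Total RNA of each group was labelled with Cy3 and hybridised to 1 one-colour Agilent array. The day 0 cells were kept on growth-arrested fibroblast feeders, with LIF (leukaemia inhibitory factor, 1000 U/ml) and 15% FBS (fetal bovine serum) in the medium. The sources used here do not give the medium of the day 6 cells. The cells are 1 line and no genetic change is given for either group. Because each group held 1 array, no test was possible, and every difference below compares these 2 RNA samples with no replicate check. In such bulk RNA, fewer cells of a type and less RNA per cell cannot be told apart.

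These genes work at several levels. Dppa2 and Dppa4 are SAP domain proteins that bind DNA as a pair, hold developmental promoters in a poised state and activate genes of the 2-cell embryo. Dppa3 is a maternal factor that keeps Uhrf1, and with it maintenance DNA methylation, from acting on the early genome, and Zfp57 recruits Trim28 to methylated imprinting control regions. Dppa5a is a KH domain protein that binds RNA, and Fbxo15 is a substrate receptor of SCF ubiquitin ligases. Tcl1 and Eras both feed the PI3K and Akt pathway, Utf1 binds chromatin at developmental genes, and Alpl is the cell surface phosphatase whose activity is used to stain ES cell colonies.

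All 10 members were lower in the day 6 cells than in the day 0 cells. A probe was called well above background where the scanner software marked it so, and all 11 member probes were well above background on both arrays, with 0 saturated. Intensities are background-subtracted scanner units, and differences are of log2 intensities after each array's 75th percentile was subtracted, day 6 minus day 0. All 11 probes were at least 2-fold lower on day 6, against 18.1% of the 28378 gene probes measured (those well above background on at least 1 array), and 10 were at least 4-fold lower, against 6.63% of those probes. At least 16-fold lower were 6 of the 11, against 1.28%. By each gene's brightest probe, the members' median difference was -4.13, a 17.5-fold lower level on day 6, and the median of all 14967 genes measured was -0.12. Day 6 levels were between 1.25% and 29.4% of the day 0 levels. The dimmest member intensity on day 6 was still 5.01 times the lowest intensity that counted as well above background there. The members are known ES cell genes and were taken up with earlier results of these arrays in view, so these counts describe them and do not test them.

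**Figure D1:**
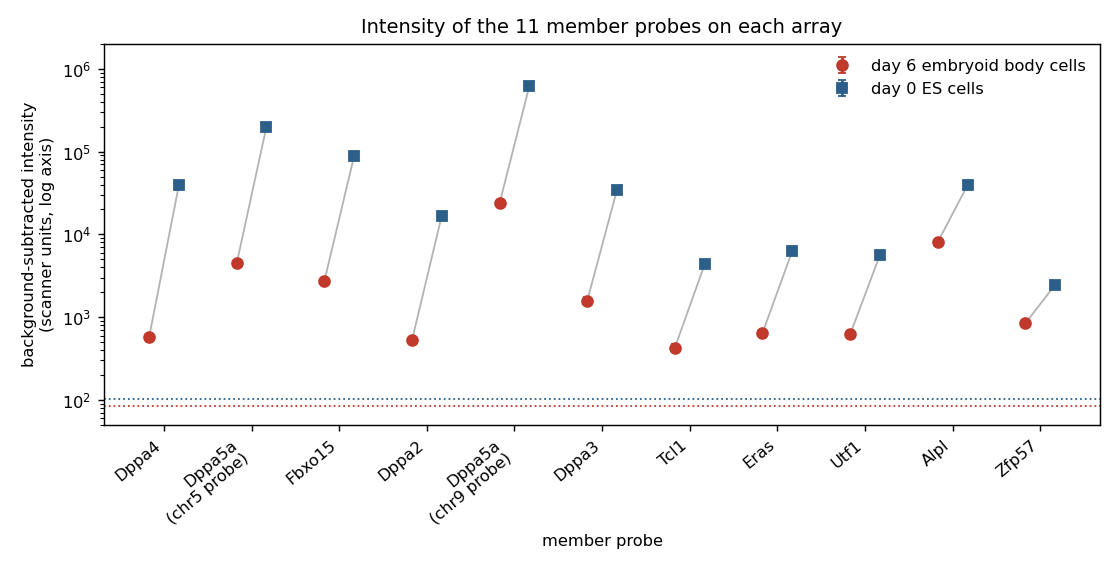
Background-subtracted intensity in scanner units (log axis) of each of the 11 member probes on the day 6 array (red circles, left) and the day 0 array (blue squares, right), before scaling. Error bars are the scanner software's error and mostly lie within the symbols, and dotted lines mark the lowest intensity well above background, 85.2 on day 6 and 102 on day 0. Every red circle lies below its blue square.

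Dppa4 showed the largest difference of the 10. Its probe (NM_028610, chr16:48053770-48053829, plus strand, mouse build mm7) read 569 ± 59.4 intensity units in day 6 embryoid body cells and 39134 ± 3913 in day 0 ES cells, where ± is the scanner software's error of that spot. The scaled difference was -6.33 with a software error SD of 0.21, an 80.2-fold lower level on day 6. It ranked 25th from the lowest of the 23731 probes well above background on both arrays. The partner gene Dppa2 (NM_028615, chr16:48078749-48078808, plus strand) read 523 ± 55.3 on day 6 and 16824 ± 1683 on day 0, a difference of -5.23 or 37.5-fold. The probes of this pair lie 24.9 kb apart on chromosome 16.

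The genes of the 2-cell embryo that act downstream of this pair were lower too. Of 12 such genes listed, 6 had a probe, and all 6 were at least 2-fold lower on day 6, against 20.0% of all genes. Zscan4c, a zinc finger gene of 2-cell embryos and of a minor share of ES cells, read 94.1 on day 6 and 9777 on day 0, a 121-fold lower level. The day 6 value of Zscan4c lay close to the lowest day 6 intensity well above background (85.2), so its fold is uncertain. Its difference had a software error SD of 0.35. Tcstv3 read 143 on day 6 and 2083 on day 0, a difference of -4.09. For 4 of the 6 the day 6 probe was not well above background, so the fold is a lower bound that sets the day 0 value against the higher of the probe's own day 6 value and the lowest day 6 value well above background. By that bound Tcstv1 was at least 66.8-fold lower and Usp17la, a deubiquitinating enzyme gene of a family of near-identical copies, at least 49.7-fold lower. Levels of such repeated gene families are uncertain, since a probe can detect several copies.

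Dppa3 (NM_139218, chr6:122666937-122666996, plus strand) read 1574 ± 158 in day 6 cells and 34593 ± 3459 in day 0 cells. The difference was -4.68, a 25.6-fold lower level on day 6. The Dppa3 partner Uhrf1, which guides maintenance methylation, differed by -0.41 and the maintenance methyltransferase Dnmt1 by -0.19, both under 2-fold. Across the 10 genes of DNA methylation and of Trim28 silencing set beside Dppa3 and Zfp57, 5 were lower on day 6 by 2-fold or more and 1 was higher by as much, against 20.0% and 17.8% of all genes, and the median was -0.96. Dnmt3l, the cofactor of de novo methylation, read 1058 on day 6 and 127541 on day 0 and was 141-fold lower. The de novo methyltransferase Dnmt3b was 9.54-fold lower and the methylcytosine dioxygenase Tet1 was 7.29-fold lower. Its relative Tet3 went the other way, at 8649 on day 6 and 1428 on day 0, 5.19-fold higher.

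Dppa5a was measured by 2 probes that differed. One (NM_025274, chr9:78441271-78441330, minus strand) was the brighter of the pair and read 23844 ± 2384 on day 6 and 623918 ± 62392 on day 0, a difference of -4.93 or 30.5-fold. The other carries the same transcript accession but is placed by the files on chr5:28571256-28571315, plus strand. It read 4463 ± 447 on day 6 and 200098 ± 20010 on day 0, a difference of -5.71 or 52.3-fold. The differences of the 2 probes lie 0.78 apart on the log2 scale, with a software error SD of 0.29 for that gap, and both are lower on day 6. The files place the same transcript on 2 chromosomes, so signal from a near-identical copy cannot be told apart from that of Dppa5a, and its fold is uncertain by the gap between its probes. The sequence of the probe placed on chromosome 5 is shown because it is the one whose placement departs from the gene. Here and below, probe sequences are the 60 bases given in the scanner files, printed for probes with at least 2 reading frames free of stop codons.
Dppa5a probe placed on chromosome 5: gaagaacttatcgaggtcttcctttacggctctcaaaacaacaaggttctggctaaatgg

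The related KH domain genes Ooep and Khdc3, both known as parts of the maternal subcortical complex of the oocyte, were also much lower. Ooep read 544 on day 6 and 33089 on day 0, a 71.0-fold lower level. Khdc3 read 268 on day 6 and 15598 on day 0, a 68.0-fold lower level. Ooep and Khdc3 thus had larger differences (-6.15 and -6.09) than either Dppa5a probe. Khdc1a and Khdc1b of the same family had no signal well above background on day 6 or day 0.

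Fbxo15 (NM_015798, chr18:85330434-85330493, plus strand) read 2708 ± 271 in day 6 cells and 88432 ± 8843 in day 0 cells. Its difference of -5.25, or 38.1-fold, was matched by no other F-box gene on the list. By their brightest probes, the 7 other F-box genes measured lay between -0.96 for Fbxo5, an inhibitor of the anaphase-promoting complex, and 0.55 for Fbxo21. Between them were Fbxo6 at -0.80, Fbxo32 at -0.70 and Fbxo9 at -0.38. The dimmer Fbxo21 probes gave 0.33 and -0.52, so Fbxo21 has no single direction here. Fbxo2 gave 0.00 by its brightest probe, and its 2 dimmer probes gave -1.64 and -2.01, so its probes disagree. A second Fbxo7 probe, placed on the minus strand, read 666 on day 6 and was not well above background on day 0. By its bound it was at least 5.58-fold higher on day 6, whereas the brightest Fbxo7 probe, on the plus strand, gave -0.36. The subunits that an F-box protein joins differed little: the adaptor Skp1 by -0.32, the RING subunit Rbx1 by -0.21, the scaffold Cul1 by -0.12 and the cullin modifier Nedd8 by -0.25. None of these 4 was 2-fold higher or lower.

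**Figure D2:**
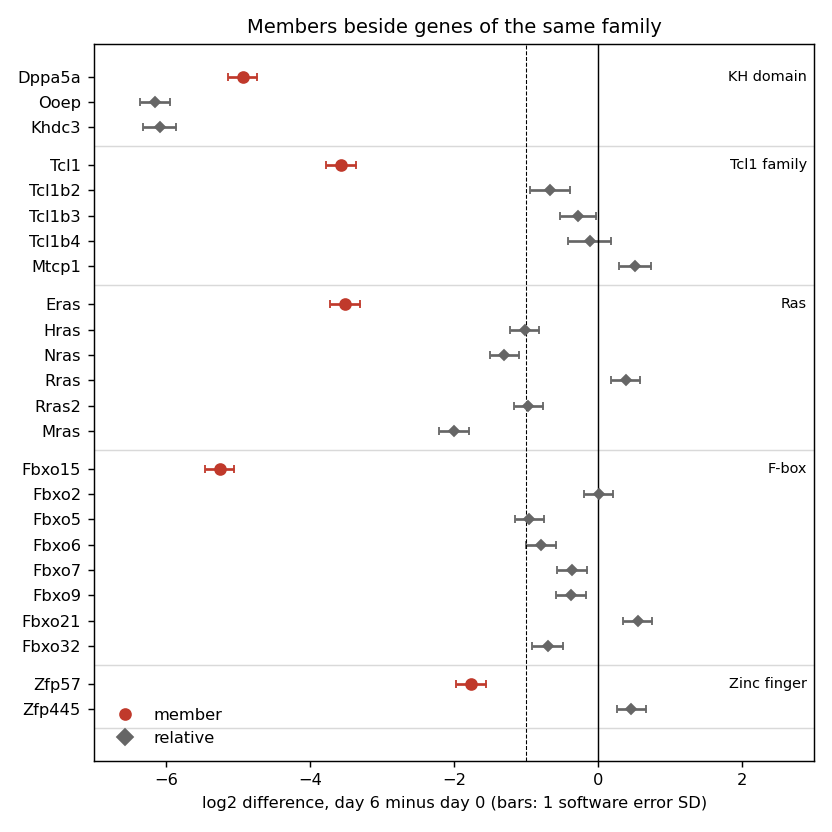
Difference in log2 scaled intensity, day 6 minus day 0, for 5 members (red circles) and the measured genes listed as their relatives (grey diamonds, not whole families), by each gene's brightest probe. Bars are 1 software error SD, the solid line is no difference and the dashed line is 2-fold lower on day 6. The KH domain relatives Ooep and Khdc3 lie to the left of Dppa5a, and the measured relatives of Tcl1, Eras, Fbxo15 and Zfp57 lie to the right of their member. Tcl1b2, Tcl1b3 and Tcl1b4 were too dim on day 0 to show a difference as large as that of Tcl1.

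Tcl1 and Eras, the members that act on Akt signalling, had nearly the same difference. Tcl1 (NM_009337, chr12:102711536-102711595, minus strand) read 427 ± 46.3 on day 6 and 4345 ± 435 on day 0, a difference of -3.57 or 11.9-fold. Eras (NM_181548, chrX:6358019-6358078, minus strand) read 642.6 ± 66.5 on day 6 and 6290 ± 629 on day 0, a difference of -3.51 or 11.4-fold. The gap between them, 0.06, was smaller than its software error SD of 0.30. Utf1 (NM_009482, chr7:136358008-136358067, plus strand) lay beside them at 617 ± 64.1 on day 6 and 5626 ± 563 on day 0, a difference of -3.41 or 10.6-fold. The Eras and Utf1 probe sequences are shown as the oligos behind these values.
Eras probe: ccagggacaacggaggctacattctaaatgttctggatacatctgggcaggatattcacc
Utf1 probe: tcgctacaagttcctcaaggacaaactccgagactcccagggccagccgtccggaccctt

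The relatives of Tcl1 and Eras had smaller differences than these members. Tcl1b2, Tcl1b3 and Tcl1b4, neighbours of Tcl1 in the same gene cluster, gave -0.67, -0.28 and -0.12, with day 6 intensities between 192 and 299 and day 0 intensities between 179 and 311, and Tcl1b1 and Tcl1b5 had no signal well above background on day 6 or day 0. The lowest day 6 intensity well above background was 85.2. From their day 0 levels, Tcl1b2, Tcl1b3 and Tcl1b4 could not have shown a difference as large as that of Tcl1. Mtcp1, the other Akt co-activator of the family, gave 0.51. Among the Ras genes, Mras was 4.0-fold lower, at 4192 on day 6 and 14378 on day 0. Rras gave 0.38, Rras2 -0.97 and Hras -1.02, so the last of these is only just past 2-fold. Nras gave -1.30 by its brightest probe and 0.14 by its other probe, so it has no single direction here. By the brightest probe, 3 of the 5 Ras genes were at least 2-fold lower. Dppa1, named like the Dppa members, was dim on both arrays. Over all the listed relatives together, 19 of 27 with a probe were measured and 5 of them were at least 2-fold lower, against 20.0% of all genes, with a median of -0.67.

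The pathway below Tcl1 and Eras was mixed. Of 17 PI3K and Akt genes, 3 were at least 2-fold lower on day 6, 2 were at least 2-fold higher and 12 lay between, with a median of -0.22. Shares of all genes were 20.0% lower and 17.8% higher. The kinase genes Akt1 and Akt2 gave 0.49 and -0.32. The catalytic subunit gene Pik3cb read 2369 on day 6 and 9956 on day 0, 4.90-fold lower. Gsk3b, a kinase that Akt inhibits, was 2.73-fold higher, and Tsc1, part of the complex that restrains mTOR, was 2.48-fold higher, while its partner Tsc2 was 2.10-fold lower. Foxo1, a transcription factor that Akt keeps out of the nucleus, read 8889 on day 6 and 18296 on day 0, 2.40-fold lower.

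Utf1 was set beside 7 genes of Myc, of Polycomb complex 2 and of the mRNA decapping that it is linked to in ES cells. Of these, 4 were lower by 2-fold or more, 0 were higher by as much and 3 lay between, against 20.0% and 17.8% of all genes, with a median of -1.35. Myc read 3014 on day 6 and 23231 on day 0, 8.99-fold lower. Mycn was 2.54-fold lower and the Polycomb subunit Eed was 3.02-fold lower. The other Polycomb subunits listed, Ezh2 and Suz12, gave 0.27 and -0.59, both under 2-fold. The cell cycle inhibitor locus Cdkn2a, which read 1470 on day 0 and was not well above background on day 6, was at least 19.5-fold lower.

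Alpl (NM_007431, chr4:137120184-137120243, minus strand) read 8071 ± 807 in day 6 cells and 39199 ± 3920 in day 0 cells, a difference of -2.50 or 5.67-fold. The intestinal and embryonic alkaline phosphatases Alpi, Akp3 and Alppl2 did not reach the well-above-background level on the day 6 or the day 0 array. Alpl is also an enzyme of bone, where it breaks down pyrophosphate. The osteoblast markers Runx2, Sp7, Bglap and Ibsp were dim, with intensities that summed to 653 on day 6 and 725 on day 0, and of them Ibsp was at least 2.39-fold lower on day 6 and 3 lay within 2-fold. Of 8 measured genes of pyrophosphate, phosphate and vitamin B6 handling, 2 were at least 2-fold lower and 6 lay within 2-fold, with a median of -0.57. These shares, and that of the osteoblast markers, are near the 20.0% of all genes that were at least 2-fold lower. These 2 were Spp1, the secreted phosphoprotein osteopontin, 70.0-fold lower at 3198 on day 6 and 191824 on day 0, and the phosphate transporter Slc20a1, 3.41-fold lower. The transporters Ank and Slc20a2 gave 0.94 and -0.84.

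Zfp57 (NM_009559, chr17:35161850-35161909, plus strand) had the smallest difference of the 10. It read 843 ± 86.1 on day 6 and 2460 ± 247 on day 0, a difference of -1.77 or 3.41-fold. Its corepressor Trim28 was 3.37-fold lower, at 52381 on day 6 and 151160 on day 0. Zfp445, the other KRAB zinc finger gene known to guard imprints, gave 0.46 by its brightest probe and was higher by its other probes too (0.53 by each). Imprinted genes at loci that Zfp57 binds were mostly higher on day 6. Of 17 measured, 10 were higher by 2-fold or more and 2 were lower by as much, against 17.8% and 20.0% of all genes, and the median was 1.64, or 3.11-fold higher. Nap1l5 was 14.3-fold higher, at 3610 on day 6 and 216 on day 0, and the proteolipid gene Nnat 8.50-fold. The Notch-like ligand gene Dlk1 was 6.0-fold higher and the growth factor gene Igf2 5.68-fold. These levels do not show from which parental allele the RNA came.

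Ordered by difference, the members formed steps. Dppa4 came first, 1.07 below Fbxo15. Fbxo15, Dppa2, Dppa5a and Dppa3 followed with gaps of 0.02, 0.30 and 0.25, none more than 1.01 times its software error SD, so their order is not resolved by that error. Dppa5a is placed here by its brightest probe. By its other probe (-5.71) it would lie between Dppa4 and Fbxo15, so the first step depends on the probe used. A gap of 1.11 separated Dppa3 from Tcl1. Tcl1, Eras and Utf1 again lay within the error, with gaps of 0.06 and 0.10. Alpl lay 0.91 above Utf1 and Zfp57 0.73 above Alpl. The gaps of over 0.7 were between 2.53 and 3.76 times their SD of 0.29 to 0.30, an error that holds no variation between cultures. In the authors' deposited table, whose values are on another scale, the differences were likewise all negative and ran between -6.24 for Dppa4 and -1.84 for Zfp57.

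**Figure D3:**
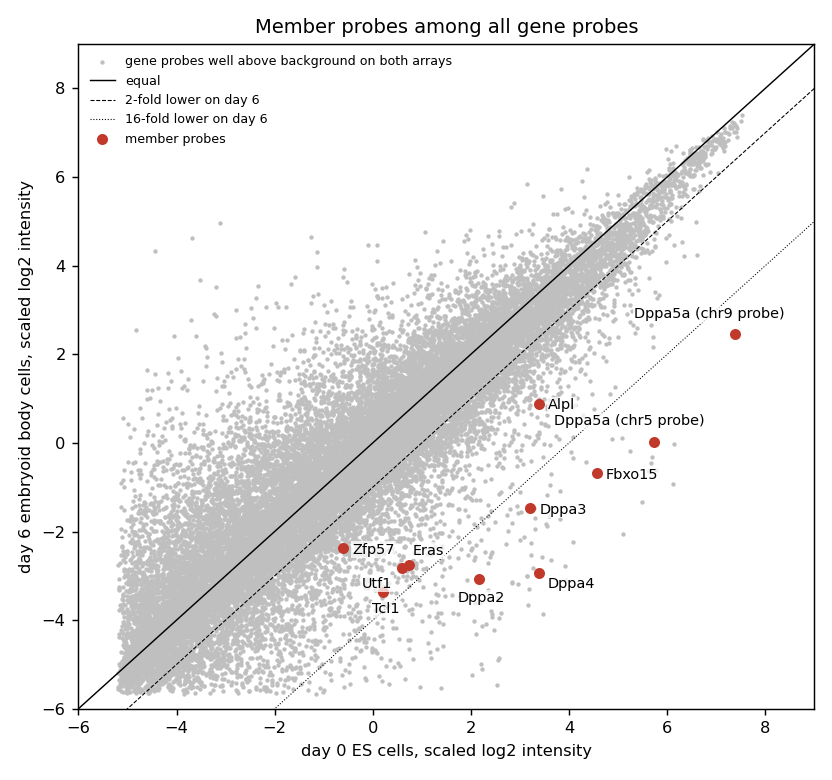
Scaled log2 intensity on day 6 (vertical axis) against day 0 (horizontal axis) for the 23731 gene probes well above background on both arrays (grey) and the 11 member probes (red). The solid line marks equal levels, the dashed line 2-fold lower and the dotted line 16-fold lower on day 6. Of the member probes 6 lie below the 16-fold line, and those of Tcl1, Eras, Utf1, Alpl and Zfp57 lie between the dashed and dotted lines.

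The genes nearest to the members' median point on the 2 arrays, out of all genes that are no members, were Thy1, Pycard, Rpl39l, Nefh and Zfp819, at distances between 0.28 and 0.37 on the log2 scale. Thy1, a surface glycoprotein of fibroblasts and neurons, read 798 on day 6 and 20274 on day 0, a difference of -4.89. Pycard, the inflammasome adaptor, read 765 on day 6 and 19827 on day 0, a difference of -4.92. The other 3 had differences between -5.06 and -4.95. The median point takes the members' median on each array separately, so its difference need not equal their median difference of -4.13. All 5 genes had larger differences than that median. Likeness over 2 arrays uses only a pair of values per gene.

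The ES cell regulators and other ES-cell-enriched genes showed the same direction as the members. Of 15 core regulators measured, 13 were lower by 2-fold or more on day 6 and 0 were higher by as much, and the median was -5.99. Pou5f1, the POU factor of the ES cell circuit, read 302 on day 6 and 41679 on day 0, 161-fold lower, and the nuclear receptors Esrrb and Nr0b1 and the factor Tfcp2l1 were 90.2-fold, 78.7-fold and 82.8-fold lower. Of 18 other effector genes, 16 were lower by 2-fold or more and 1 was higher by as much, and the median was -3.99. Shares of all genes were 20.0% and 17.8%. Among the effector genes, the Nodal co-receptor Tdgf1 read 152 on day 6 and 22288 on day 0 and was 172-fold lower. The threonine dehydrogenase gene Tdh was 132-fold and the zinc finger gene Zfp296 130-fold lower. The members' median of -4.13 thus lay near that of the other effector genes.

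**Figure D4:**
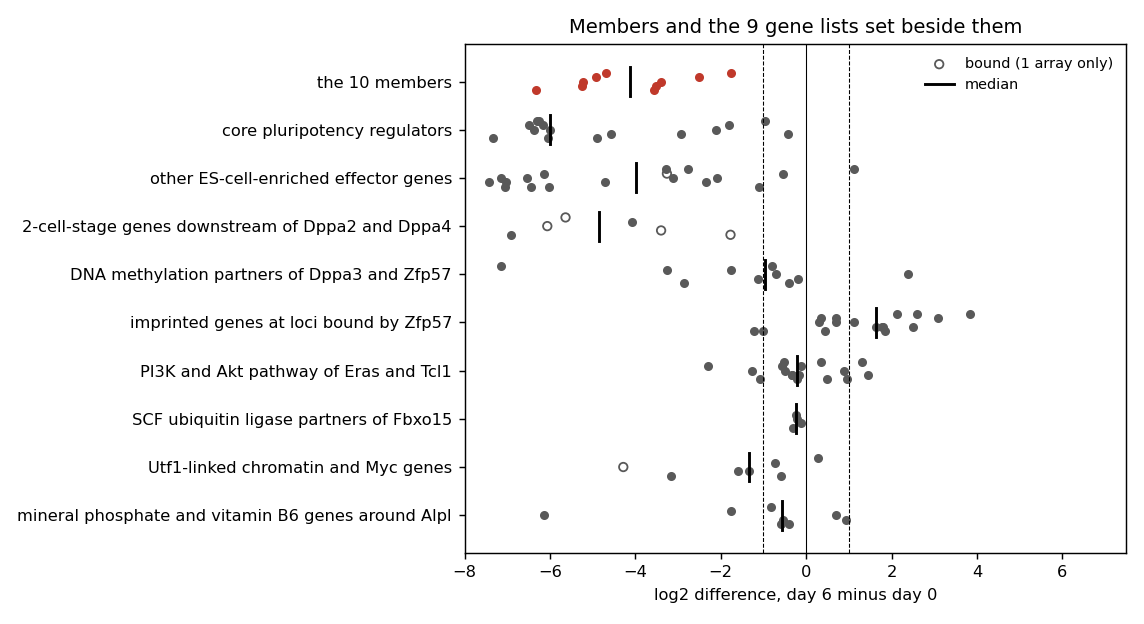
Difference in log2 scaled intensity, day 6 minus day 0, of the 10 members (red) and of the measured genes of 9 lists (grey), 1 row per list and 1 point per gene. Vertical ticks are medians, open circles are bounds for genes well above background on 1 array only, and dashed lines mark 2-fold lower and higher. The imprinted genes are the list with a median above 0, at 1.64, and the members' points all lie left of the 2-fold lower line.

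Markers of other cell types moved between the arrays as well, and their counts stand against 20.0% of all genes lower by 2-fold or more and 17.8% higher by as much. Neural precursor markers were higher on day 6 (4 of 5 at least 2-fold, summed intensity 314389 on day 6 and 37282 on day 0). Hes5 was 268-fold and Fabp7 319-fold higher, and Sox1 and Pax6 were 2.45-fold and 5.61-fold higher. The other marker, Nes, gave 0.34. Nes read 49114 on day 6 and 33271 on day 0, so it made up most of the day 0 sum. Sox1 read 142 on day 0, near the lowest intensity well above background there (102), so its fold is uncertain. Of the ES markers 4 of 5 were at least 2-fold lower (sums 62669 and 431663 on day 6 and day 0), the exception being Sox2 at -0.43, which neural precursors also express. Sox2 read 57172 on day 6 and 66002 on day 0, so it made up most of the day 6 sum but not of the day 0 sum. Of 12 feeder fibroblast markers 11 were measured, 6 were lower by 2-fold or more on day 6 and 1 was higher by as much, with a median of -1.12 and sums of 77225 on day 6 and 219450 on day 0. S100a4 was 159-fold, Lox at least 118-fold and Col1a1 20.0-fold lower, Lum was 3.20-fold higher, and Fap was dim on both arrays. Of 8 germ cell markers 7 were at least 2-fold lower, with sums of 5058 on day 6 and 47580 on day 0. Ddx4, a germ cell RNA helicase, was 27.4-fold and Mael, of the piRNA pathway, 26.4-fold lower, and the growth factor receptor gene Kit gave -0.36. The part of feeder cells, germ-like cells or medium in the members' differences was not tested.

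Several members sit next to genes with equally large differences. The 2 nearest protein-coding genes on each side of every member were taken in the gene order of assembly GRCm38.p6, a set chosen after values had been seen. Of 36 such genes 27 were measured. At least 2-fold lower on day 6 were 12 and at least 2-fold higher were 3, against 20.0% and 17.8% of all genes, and the median was -0.35. Dppa3 lies between Gdf3, a growth factor of the TGF-beta family, and Nanog, a homeobox regulator of ES cells. Gdf3 read 218 on day 6 and 16161 on day 0 and was 86.4-fold lower, and Nanog read 492 on day 6 and 26750 on day 0 and was 63.5-fold lower. The next gene beyond Nanog, the glucose transporter gene Slc2a3, gave -0.10, and Apobec1, beyond Gdf3, gave -1.25. On the far side of Dppa2 from Dppa4 lies Morc1, a chromatin ATPase gene of male germ cells, which read 616 on day 6 and 36120 on day 0 and was 68.5-fold lower. Nectin3, an adhesion gene on the other side of Dppa4, gave -0.29. Ooep, described above, is the gene next to Dppa5a.

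The remaining members had neighbours with smaller or opposite differences. Next to Tcl1, on the side away from the Tcl1b genes, D430019H16Rik read 23075 on day 6 and 226 on day 0 and was 87.7-fold higher. Utf1 lies next to Kndc1, 6.65-fold lower, and 2 genes from Adam8, 3.68-fold lower, while Adgra1 on the other side of Kndc1 was at least 2.77-fold higher. Beside Alpl, the Rap GTPase activator gene Rap1gap and the deubiquitinase gene Usp48 were 3.11-fold and 2.96-fold lower, and the endothelin-converting enzyme gene Ece1 and the translation factor gene Eif4g3, on its other side, gave -0.36 and -0.09. Beside Eras, Pcsk1n was 2.35-fold lower and the deacetylase gene Hdac6 gave -0.35. Beside Fbxo15, Cyb5a was 2.14-fold lower and Timm21, a mitochondrial import gene, gave 0.89. Near Zfp57, the GABA receptor gene Gabbr1 was 2.21-fold higher and 2410137M14Rik was 3.30-fold lower.

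**Figure D5:**
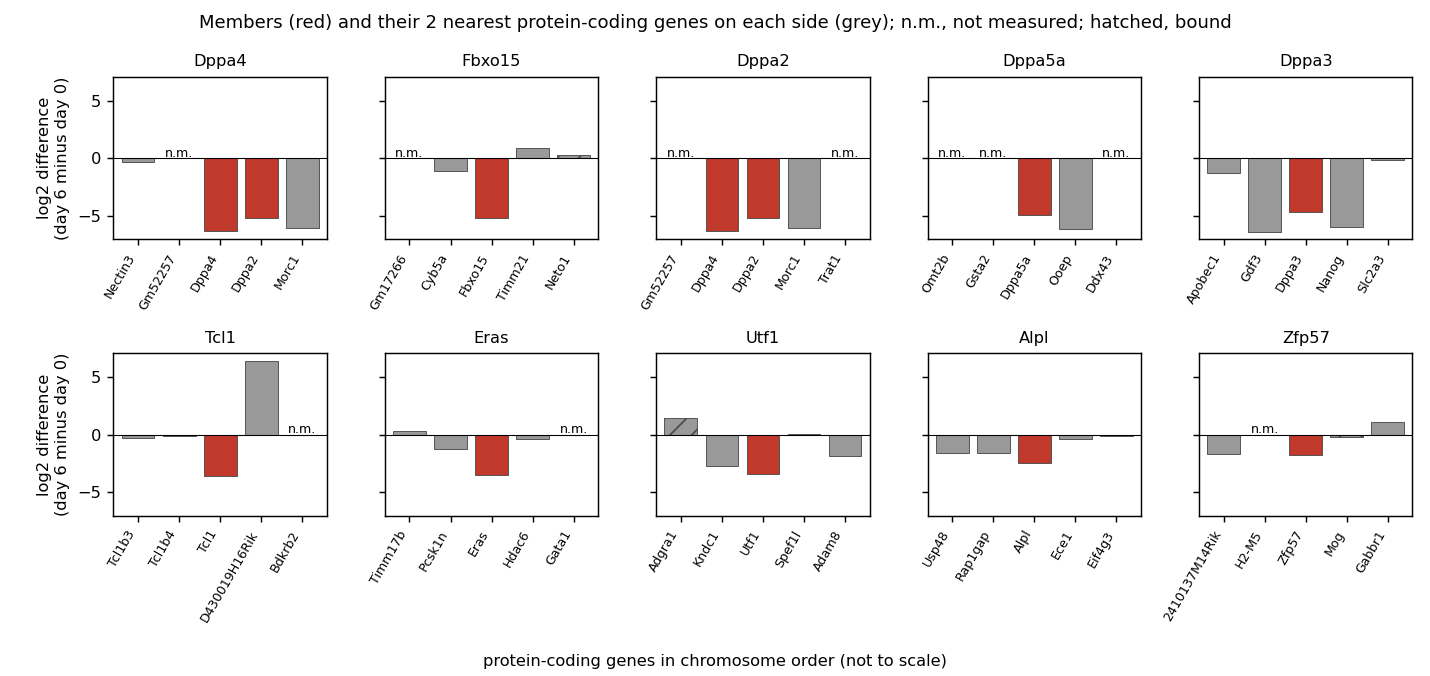
Difference in log2 scaled intensity, day 6 minus day 0, of each member (red) and of the 2 nearest protein-coding genes on each side (grey), in chromosome order and not to scale. Hatched bars are bounds and n.m. marks genes not measured. Long negative bars stand beside Dppa2 and Dppa4 (Morc1), Dppa5a (Ooep) and Dppa3 (Gdf3 and Nanog), and the single long positive bar is D430019H16Rik beside Tcl1.

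Promoter sequences from RefSeq (GRCm38.p6, 250 bases before to 50 after a transcript start) were at hand for 5 of the 10 members, in 8 windows. These 5 (Alpl, Utf1, Tcl1, Zfp57 and Eras) are the members with the smallest differences. They do not include the members at least 16-fold lower on day 6. They were searched on both strands for the octamer ATGCAAAT of POU factors, the Sox motif CATTGT, the TATA box TATAAA and the GC box GGGCGG, the last added to the search later than the others. Over 32851 promoters the octamer was found in 1.74%, the Sox motif in 12.6%, the TATA box in 13.6% and the GC box in 35.7%. The octamer was in 0 of the members' 8 windows, and the Sox motif was in the Eras window alone. With an octamer in 1.74% of all promoters, 8 windows are too few for its absence to say anything about the members. GC boxes were in the windows of Eras (3), Utf1 (4), Tcl1 (2) and 1 of the 2 Alpl windows (3), with matches that share a base counted separately. The TATA box letters were in the other Alpl window and in 1 of the 3 Zfp57 windows, at positions -192 and -189 from the transcript start. Both of these matches were on the strand opposite to the gene. CpG pairs numbered 8 in the Eras window, 17 in that of Utf1 and 11 in that of Tcl1, 26 and 4 in the Alpl windows and 4, 6 and 9 in the Zfp57 windows, against a median of 7 over all promoters, so 5 of the 8 windows lay above that median and 3 below it. A match describes these letters and shows no binding.

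The windows of Eras, Tcl1 and Utf1 are shown because these 3 members had nearly the same difference. They lie at chrX:7928558-7928857 (minus strand), chr12:105222688-105222987 (minus strand) and chr7:139943606-139943905 (plus strand) of GRCm38.p6, each written 5′ to 3′ along the gene. Capitals mark GC boxes and, in Eras, also the Sox motif on the gene's strand, whose first base is at position -48 from the transcript start.
Eras promoter window: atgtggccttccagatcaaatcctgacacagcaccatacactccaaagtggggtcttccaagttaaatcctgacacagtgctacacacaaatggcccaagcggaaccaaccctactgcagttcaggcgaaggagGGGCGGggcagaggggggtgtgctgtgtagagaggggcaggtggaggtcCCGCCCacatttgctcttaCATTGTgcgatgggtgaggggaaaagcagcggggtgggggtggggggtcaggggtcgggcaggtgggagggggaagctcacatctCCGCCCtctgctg
Tcl1 promoter window: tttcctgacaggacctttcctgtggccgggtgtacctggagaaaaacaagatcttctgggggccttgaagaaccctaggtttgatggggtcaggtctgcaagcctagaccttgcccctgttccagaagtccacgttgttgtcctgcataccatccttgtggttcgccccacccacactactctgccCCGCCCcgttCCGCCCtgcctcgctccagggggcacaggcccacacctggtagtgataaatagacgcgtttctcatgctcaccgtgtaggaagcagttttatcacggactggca
Utf1 promoter window: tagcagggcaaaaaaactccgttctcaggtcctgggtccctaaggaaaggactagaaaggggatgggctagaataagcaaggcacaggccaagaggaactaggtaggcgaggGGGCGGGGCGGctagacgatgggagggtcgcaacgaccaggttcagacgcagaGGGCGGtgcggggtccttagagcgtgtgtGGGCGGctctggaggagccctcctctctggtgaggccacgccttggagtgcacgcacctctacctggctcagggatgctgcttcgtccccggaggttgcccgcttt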

How the data were processed

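Total RNA of 1 sample per group was measured on 2 one-colour Agilent arrays of design 014868. Per the file headers, spots were read with Feature Extraction 9.5.3.1, which background-subtracted and detrended each deposited intensity, and probe positions are in mouse build mm7 (NCBI build 35). A second deposited file, a table of log2 values, has columns whose distributions were made equal (median 8.53 in each) by steps the sources used here do not give. Its differences had a Pearson correlation of 0.995 with those used here across 23731 probes, which are not independent replicates.

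Control and outlier spots were left out, log2 intensities of spots of a probe were averaged, and each array's 75th percentile over all gene probes (4371 units on day 6, 3746 on day 0) was subtracted. Of 41174 gene probes, 65.4% on day 6 and 61.4% on day 0 were well above background. A probe was measured where it was so on at least 1 array (28378 probes). Where it was so on 1 array only, its bound was used in counts and medians. Genes were named through RefSeq tables by accession (22951 probes), symbol (6659) or older symbol (3109), with 8455 unnamed, and given their probe with the highest mean log2 value. The software's error, with a multiplicative part of 0.1, gives an SD of about 0.21 log2 units for a difference; among 127 probes with 10 or more spots the median SD between spots was 0.0485 on day 6 and 0.0541 on day 0. Neither error includes differences between cultures, and 1 array per group limits the precision.

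With 1 array per group no test was run, and features were counted at 2-fold, 4-fold and 16-fold. Named were every member and every listed relative with a probe, up to 4 genes of each other list with the largest difference, and the 5 genes nearest to the members' median point. Uhrf1, Dnmt1, Trim28, Akt1, Akt2, Tsc2, Ezh2, Suz12, marker genes and gene neighbours were named outside that rule after their values were seen. Members and gene lists were chosen with earlier results of these data known. Alternatives changed the background correction (normexp, offset 50, limma 3.58.1 in R 4.3.3), the scaling, the filter, the choice of probe and the value table. Other steps used Python 3.11.15 with numpy 2.4.6 and pandas 2.3.3, and the counting was tested on simulated data. Protein sequences were not used here, and some genes of the lists are not reported here and were left out of the list counts.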

Additional observations from a re-analysis of the deposited data

How the results depend on the processing

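Under 13 alternatives, all 11 member probes and all 10 members stayed at least 2-fold lower on day 6, and 0 of 130 member values changed sign. Several alternatives could not have changed these values. All 11 member probes were well above background on both arrays, so the settings of the filter and of dim probes left every member value as it was. The mean over a gene's probes could change Dppa5a alone. Of the 130 values 20 moved by more than the software error SD of the difference, 10 of them with no scaling of the arrays. The members' median of -4.13 became -3.91 with no background subtraction and -3.90 with no scaling. For the first of these the cause was not tested. With no scaling the median of all probes was 0.15 in place of -0.08, and with median scaling it was -0.19. Dppa5a ranged between -5.32, by the mean of its 2 probes, and -4.71, with no scaling. Among all probes past 2-fold, the share that was higher on day 6 was 49.3% as reported, 43.1% with median scaling and 60.9% with no scaling, and both counts stayed within 1.5 times their reported values. One alternative, which kept a probe dim on 1 array at its own value, was chosen after seeing the data; setting such probes at their bound, listed as an alternative, equals the reported values. No paired analysis was possible because each group held 1 array, and no replicate could be left out. The arrays shared 1 slide, and a slide position cannot be told apart from its group. On day 6 the members' probes stood 5.01 or more times above the lowest measurable intensity, yet the choice of background correction still moved Dppa2, Dppa4, Tcl1 and Eras (to -4.94, -6.07, -3.24 and -3.30 with no subtraction).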
